A study of Arabidopsis thaliana with 28 samples.

Results

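COR15A (AT2G42540) and COR15B (AT2G42530) are neighbouring Arabidopsis thaliana genes for cold-induced proteins of the chloroplast. They were taken by gene name from the platform's probe-to-gene table, which gives each gene 1 probe set, 263497_at for COR15A and 263495_at for COR15B. Both passed the filter on dim probe sets and so make up 2 of 14578 tested features, counting a named gene or a probe set without a single gene name as 1 feature. The genes are close relatives, and how far either probe set also binds the other transcript was not tested. Their transcripts were read on Affymetrix arrays from 28 samples of the entire aerial part of Ws-2 plants, 4 samples for each of 7 groups.

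Wild type was sampled warm and after 24 h of cold. CBF1OX, CBF2OX and CBF3OX plants overexpressed CBF1, CBF2 and CBF3 and were sampled warm. CBF2DN plants overexpressed CBF2Δc, which is a truncated CBF2, and were sampled warm and after 24 h of cold. All plants grew on agar for 11 d at 22 °C under continuous light near 100 µmol m-2 s-1. Cold plants were then moved to 4 °C for 24 h at a light level of about 35 in the same unit. Cold, lower light and greater age therefore cannot be told apart in the cold groups. Every construct was studied in 2 transgenic lines of 2 samples. They were G5 and G39 (CBF1OX), then E2 and E24 (CBF2OX), A28 and A30 (CBF3OX) and DN89 and DN96 (CBF2DN), and the first line named holds replicates 1 and 2. Wild-type plants carried no construct. The sources used here give neither the promoters of the constructs nor how plants were pooled, so the p-values speak only to the spread among these arrays.

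When a plant is chilled it switches on the CBF genes, whose products are AP2/ERF transcription factors that recognise the CRT/DRE element in promoters of cold-regulated genes. COR15A is a classical target of this pathway. Its product is made as a precursor, enters the chloroplast stroma as a small hydrophilic protein of the late embryogenesis abundant (LEA) type, and is known for protecting membranes during freezing. COR15B encodes a close relative of it, and both genes are widely used as markers of cold acclimation.

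The levels are log2 values made by the authors with GCRMA, so 1 unit is a doubling, and the levels of the 2 probe sets are not comparable with each other. Array medians ran from 4.98 to 5.08, and the mean correlation between arrays of a group ran from 0.986 to 0.995. Of 11 green tissue markers 1 had a named probe set, LHCB4.2, an antenna protein gene of photosystem II. Its group means were 9.05 and 9.09 in the cold wild type and cold CBF2DN and 10.53 to 11.16 in the warm groups, overexpressors included. Of 6 root markers 3 had one. PYK10, a beta-glucosidase gene, stood between 10.79 and 11.84 in the group means, and the root hair expansin genes EXPA7 and EXPA18 between 3.18 and 4.50. EXPA18 was called lower in CBF3OX than in warm wild type (-1.002), and PYK10 lower in cold than in warm CBF2DN (-1.03). The summed level of the root markers was 10.40 to 11.28 in the cold samples and 11.22 to 12.47 in the warm samples. It was summed on linear values and is therefore almost wholly that of PYK10. The part of these marker shifts in the results was not tested. In such bulk samples, fewer cells of a type and less RNA per cell cannot be told apart.

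In warm wild-type plants both genes were low. COR15A stood at 5.01, 4.27, 4.29 and 4.29 in replicates 1 to 4. Apart from replicate 1 the values were almost identical, and across the 8 warm wild-type and warm CBF2DN samples 6 lay between 4.27 and 4.29. COR15B stood at 6.13, 6.77, 5.97 and 6.50 in warm wild type, with a mean of 6.34 ± 0.36 (SD, n = 4), against 4.46 ± 0.36 for COR15A. COR15B thus varied among the 4 samples with no repeated value. Whether the repeated COR15A value is the background of its probe set was not tested. Changes of COR15A from warm plants are therefore given as log2 differences of the deposited values, with no fold, and their ranks are on the same values.

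After 24 h of cold the wild type had high levels of both transcripts in every sample. COR15A reached 12.06, 12.15, 12.01 and 12.43, a mean of 12.16 ± 0.19. COR15B reached 12.37, 12.19, 12.36 and 11.83, a mean of 12.19 ± 0.25. For both genes every cold sample lay far above every warm one. COR15A rose by 7.70 ± 0.25 (standard error of the limma fit, adjusted p = 1.14e-17), and COR15B by 5.84 ± 0.20 (adjusted p = 4.99e-17), or 57.5-fold.

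A feature was called when its Benjamini-Hochberg adjusted p over all 14578 features was below 0.05 and its change was at least 2-fold. Cold raised 8.74% of features past this rule in the wild type, and both COR15 genes were among them. By size of the rise COR15A had rank 3 among all features, after the unnamed probe set 264511_at (8.77) and AT1G16850 (8.28), and COR15B had rank 8.

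**Figure D1:**
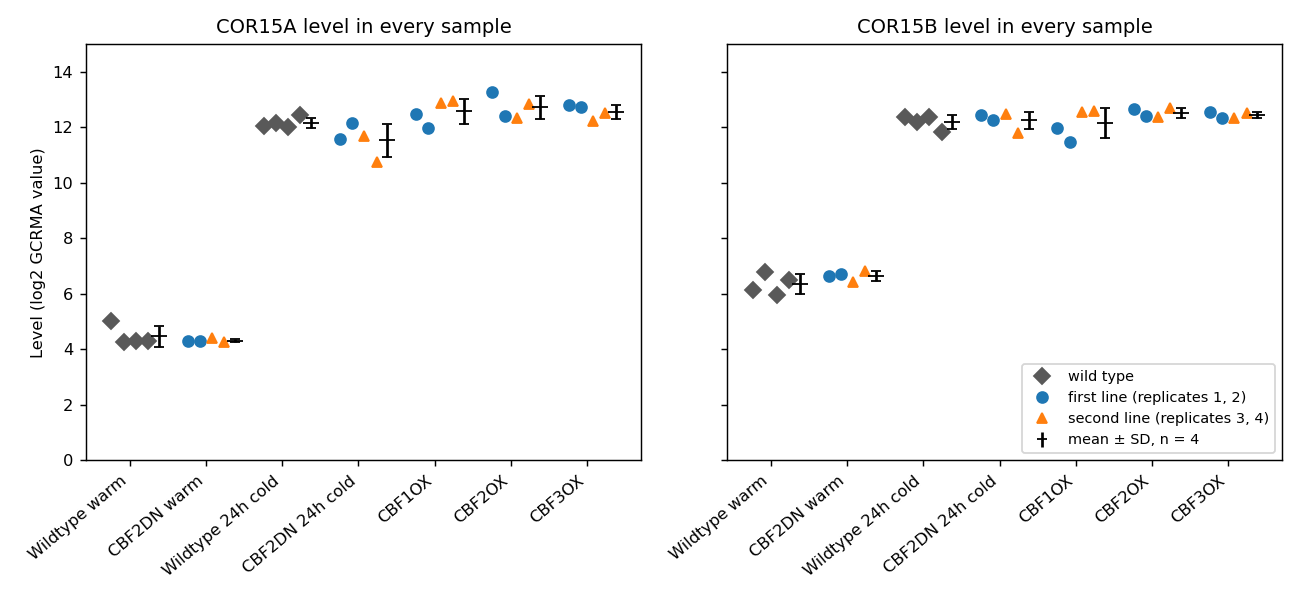
Level of COR15A and COR15B in each of the 28 samples, as log2 GCRMA values, with diamonds for wild type, circles for the first and triangles for the second line of each construct, and bars for the mean and SD of 4 samples. Warm wild type and warm CBF2DN lie between 4.27 and 5.01 for COR15A and between 5.97 and 6.83 for COR15B, and the other 5 groups lie at 10.74 or above.

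Overexpression of a single CBF gene was accompanied by comparable levels in warm plants. COR15A stood at 12.48, 11.97, 12.89 and 12.94 in CBF1OX, at 13.26, 12.41, 12.35 and 12.83 in CBF2OX, and at 12.79, 12.72, 12.23 and 12.52 in CBF3OX. All 12 overexpressor samples lay above all 8 warm wild-type and warm CBF2DN samples. The log2 rises over warm wild type were 8.11 ± 0.25 (adjusted p = 3.17e-18) in CBF1OX, 8.25 ± 0.25 (2.05e-18) in CBF2OX and 8.10 ± 0.25 (1.61e-18) in CBF3OX, each from limma.

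COR15B followed in the same plants. Its level was 11.97, 11.48, 12.56 and 12.59 in CBF1OX, 12.67, 12.39, 12.36 and 12.69 in CBF2OX, and 12.55, 12.35, 12.34 and 12.50 in CBF3OX. Only the first 2 CBF1OX samples, both of line G5, were under 12. COR15B rose by 5.81 ± 0.20 (56-fold), 6.18 ± 0.20 (72.8-fold) and 6.09 ± 0.20 (68.2-fold) in the same order (limma adjusted p = 5.85e-17, 8.22e-18 and 1.19e-17). Both genes were called in all 3 overexpressors, where 1.8%, 1.71% and 1.94% of features were called higher. These 3 comparisons and the cold comparison share the 4 warm wild-type samples, so they are not independent of each other.

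Among all tested features, on the deposited values, COR15A had rank 1 by size of the rise in CBF1OX and rank 2 in CBF2OX and CBF3OX. The features ahead of it there were the unnamed probe sets 254075_at in CBF2OX (8.39) and 254066_at in CBF3OX (8.38). COR15B had rank 5 in each overexpressor.

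The 3 overexpressors were compared with each other for both genes of the pair. Each CBF gene was overexpressed in its own 2 lines. The effect of the gene therefore cannot be told apart from that of its lines and their strength of overexpression. For COR15A the difference was -0.14 for CBF1OX minus CBF2OX (95% interval -0.65 to 0.36), 0.005 for CBF1OX minus CBF3OX (-0.50 to 0.51) and 0.15 for CBF2OX minus CBF3OX (-0.36 to 0.65). For COR15B it was -0.38 (-0.80 to 0.04), -0.29 (-0.70 to 0.13) and 0.09 (-0.33 to 0.51). Neither gene was called in any of these comparisons, in which 0.0343%, 0.0206% and 0.0206% of features were called. The sample ranges overlapped in each, and the intervals lay inside 2-fold in either direction. Limma adjusted p ran from 0.803 to 1. With 4 arrays a group, differences inside these intervals remain possible, and with 1 line of each construct the sign of the CBF1OX differences turned.

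Warm overexpressors were then set against the wild type in the cold. COR15A was higher by 0.41 ± 0.25 in CBF1OX (limma adjusted p = 0.177), by 0.55 ± 0.25 in CBF2OX (adjusted p = 0.0662) and by 0.40 ± 0.25 in CBF3OX (adjusted p = 0.183), and these differences did not pass. COR15B differed by -0.04, 0.34 and 0.25 (adjusted p = 0.9, 0.173 and 0.33). For each gene and overexpressor the samples overlapped those of cold wild type. Over all features 15.8%, 16.6% and 15.5% were called in these 3 comparisons, and the pair was not. The 95% intervals ran from -0.10 to 0.91, 0.04 to 1.06 and -0.10 to 0.91 for COR15A, so the CBF2OX interval lay above 0, and from -0.46 to 0.38, -0.08 to 0.76 and -0.17 to 0.67 for COR15B. Over the alternatives the difference of COR15A stayed positive and below 2-fold, with adjusted p from 0.0209 to 0.868 in CBF1OX, 0.0397 to 0.245 in CBF2OX and 0.0477 to 0.528 in CBF3OX.

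Plants overexpressing the truncated CBF2 did not have raised levels when warm. COR15A stood at 4.29, 4.29, 4.40 and 4.27 in warm CBF2DN and COR15B at 6.63, 6.70, 6.43 and 6.83. The change from warm wild type was -0.15 ± 0.25 for COR15A and 0.30 ± 0.20 for COR15B, with limma adjusted p of 1 and 0.918, and the sample ranges overlapped. In this comparison 0.0206% of features were called. Against these plants the full-length construct CBF2OX was higher by 8.40 ± 0.25 for COR15A (adjusted p = 1.3e-18) and by 5.88 ± 0.20 for COR15B (58.9-fold, adjusted p = 4.31e-17), where 1.71% of features were called higher.

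In the cold CBF2DN plants also had high levels of both transcripts. COR15A reached 11.56, 12.15, 11.68 and 10.74, a mean of 11.53 ± 0.59, and COR15B reached 12.44, 12.27, 12.47 and 11.81, a mean of 12.25 ± 0.30. COR15A had its lowest level among the 5 high groups here, whereas COR15B did not. Within CBF2DN the cold rise was 7.22 ± 0.25 for COR15A (adjusted p = 5.57e-17) and 5.60 ± 0.20 for COR15B (48.5-fold, adjusted p = 1.43e-16), both called in limma, as were 9.08% of features in that direction.

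Cold CBF2DN was compared with cold wild type to ask whether the truncated factor lowers cold induction. COR15A was lower by 0.63 units in the mean (-0.63 ± 0.25, 95% interval -1.14 to -0.12, limma adjusted p = 0.135), and COR15B differed by 0.06 ± 0.20 (-0.36 to 0.48, adjusted p = 0.906). Neither was called, where 0.837% of features were. For COR15A 3 of 4 CBF2DN samples lay below all wild-type samples and the other, at 12.15, lay among them. The difference between the cold responses of the 2 genotypes was -0.48 ± 0.35 for COR15A (adjusted p = 0.734) and -0.24 ± 0.29 for COR15B (adjusted p = 0.866), with 0.0274% of features called.

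**Figure D2:**
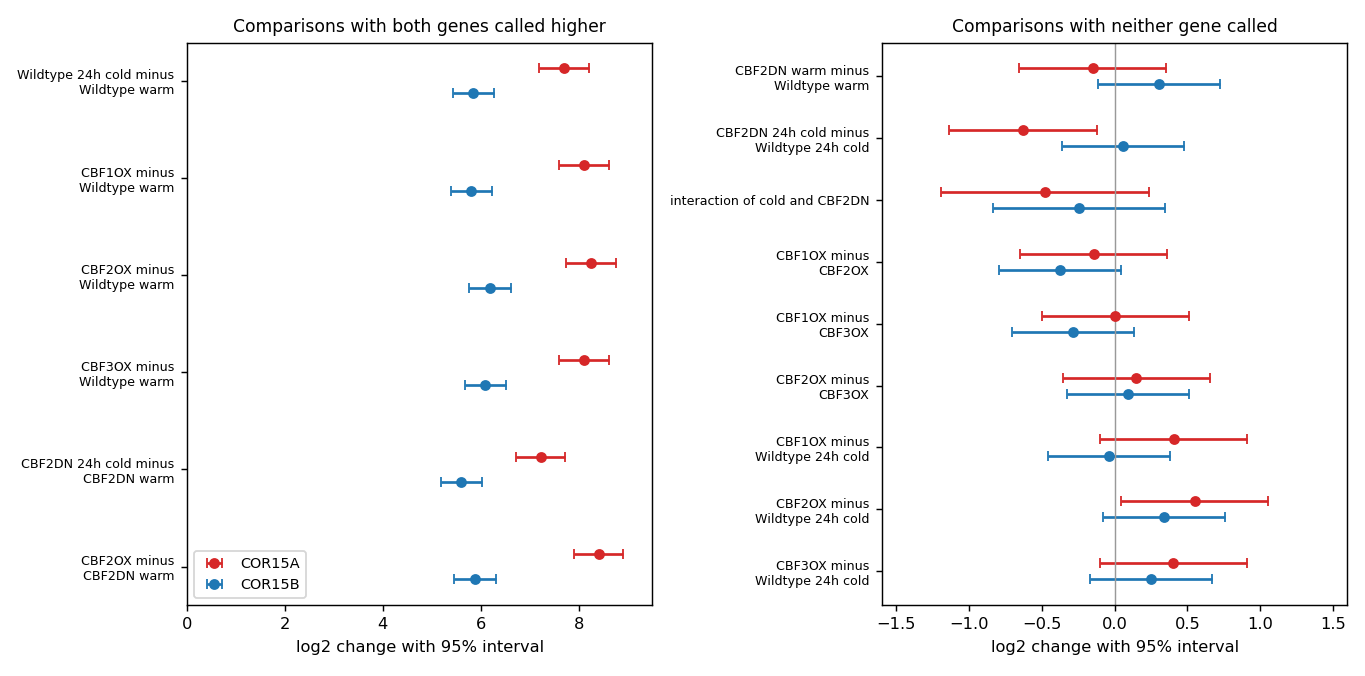
Log2 changes of COR15A and COR15B with their 95% intervals in 15 comparisons, with a separate axis for the comparisons in which both genes were called and for those in which neither was. In the called comparisons COR15A lies between 7.22 and 8.40 and COR15B between 5.60 and 6.18, and in the others all estimates lie within 0.63 of 0.

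The order of the mean levels was similar but not identical for the 2 genes. For COR15A it ran from CBF2OX (12.71) through CBF1OX (12.57), CBF3OX (12.56), cold wild type (12.16) and cold CBF2DN (11.53) to warm wild type (4.46) and warm CBF2DN (4.31). For COR15B it ran from CBF2OX (12.53) through CBF3OX (12.44), cold CBF2DN (12.25), cold wild type (12.19) and CBF1OX (12.15) to warm CBF2DN (6.65) and warm wild type (6.34). Neighbours within the 5 high groups and within the 2 low ones had overlapping samples and did not pass after adjustment where they were tested. The interval of the step from cold wild type to cold CBF2DN for COR15A lay below 0, and the step from CBF3OX to cold CBF2DN for COR15B was not tested. Between the high and the low groups no samples overlapped.

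Within each construct the lines were compared with a model that gave each line its own mean. In CBF1OX both genes had lower values in line G5 than in line G39. COR15A stood at 12.48 and 11.97 in G5 against 12.89 and 12.94 in G39, a difference of -0.69 ± 0.30 (adjusted p = 0.173, limma). COR15B stood at 11.97 and 11.48 against 12.56 and 12.59, a difference of -0.85 ± 0.25 (adjusted p = 0.0277, limma), which was under 2-fold and not called. Of all features 5.89% were called between G5 and G39.

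Both lines had high levels of the pair compared with warm plants. Over warm wild type COR15A rose by 7.76 ± 0.26 in G5 and 8.45 ± 0.26 in G39, and COR15B by 5.38 ± 0.22 and 6.23 ± 0.22. Only 0.466% of features were called higher in G5, against 3.97% in G39, and both COR15 genes were among them in either line. In lines E2, E24, A28 and A30 COR15A rose by 8.37, 8.13, 8.29 and 7.91 and COR15B by 6.19, 6.18, 6.11 and 6.08, where 2.54%, 1.67%, 2.23% and 1.89% of features were called higher. The lines of CBF2OX differed by 0.25 ± 0.30 for COR15A and 0.005 ± 0.25 for COR15B, and those of CBF3OX by 0.38 ± 0.30 and 0.03 ± 0.25. None of these was called, where 2.3% and 0.00686% of features were.

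The lines of CBF2DN lay together when warm, with differences of -0.05 ± 0.30 for COR15A and 0.04 ± 0.25 for COR15B (DN89 minus DN96), where 0.919% of features were called. In the cold COR15A stood at 11.56 and 12.15 in DN89 and at 11.68 and 10.74 in DN96. The difference was 0.65 ± 0.30 (limma adjusted p = 0.306) with overlapping samples, and that of COR15B was 0.21 ± 0.25, where 1.1% were called. Against cold wild type COR15A was at -0.31 ± 0.26 in DN89 (adjusted p = 0.551) and at -0.95 ± 0.26 in DN96 (adjusted p = 0.0234, limma), the latter just under 2-fold and not called, where 0.686% and 2.76% of features were. The single sample at 10.74, replicate 4, was the lowest of the 20 cold or overexpressor samples for COR15A. Without it the mean difference of COR15A from cold wild type over both lines was -0.37. Over all alternatives that difference ran from -0.95 to -0.31 with adjusted p from 0.0276 to 0.532, below 2-fold in each. From warm to cold COR15A rose by 7.57 ± 0.30 in DN89 and 6.88 ± 0.30 in DN96 and COR15B by 5.69 ± 0.25 and 5.51 ± 0.25, where 10.2% and 8.67% of features were called higher.

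**Figure D3:**
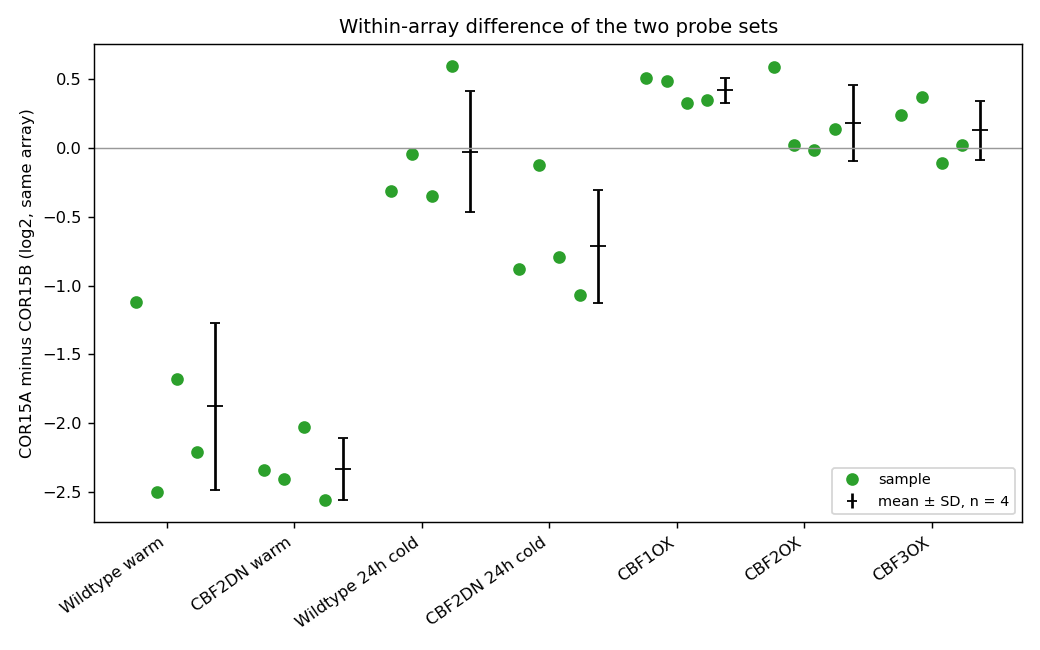
COR15A minus COR15B on the same array, in log2 units, for each of the 28 samples, with the mean and SD of 4 samples in each group. The 0 line has no meaning as a level, since the probe sets differ, but the distance between groups is the difference between the changes of the 2 genes, and warm wild type and warm CBF2DN lie between -2.56 and -1.12, below the other groups.

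The changes of the 2 genes were compared within each array. Their difference, COR15A minus COR15B, was -1.12, -2.50, -1.68 and -2.21 in warm wild type and -0.31, -0.04, -0.35 and 0.60 in cold wild type. The mean rise of COR15A was larger than that of COR15B by 1.85 units in the cold, and by 2.30, 2.06 and 2.01 units in CBF1OX, CBF2OX and CBF3OX. In CBF2DN it was larger by 1.62 units in the cold. In these 5 comparisons the groups did not overlap and the exact two-sided permutation p was 0.0286, the smallest that 4 against 4 samples allow, and 0.0572 after adjustment over 10 comparisons, which did not pass. These sizes start from the repeated low value of COR15A in warm samples.

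Among the high groups, where neither gene was near that value, the steps in the difference of the genes were smaller than those from the low to the high groups. In CBF1OX it was 0.51, 0.49, 0.33 and 0.35, and in cold CBF2DN -0.88, -0.12, -0.79 and -1.07. The step from cold wild type to cold CBF2DN was -0.69 (exact permutation p = 0.0857, adjusted p = 0.143, n = 4), and those from cold wild type to CBF1OX, CBF2OX and CBF3OX were 0.45, 0.21 and 0.15 (exact permutation p = 0.143, 0.457 and 0.543, n = 4, adjusted p = 0.204, 0.508 and 0.543). None passed. From warm wild type to warm CBF2DN the step was -0.46 (exact permutation p = 0.229, adjusted p = 0.286).

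Samples of a high group that were above their group's mean for COR15A tended to be above it for COR15B. Over the 20 samples of the 5 high groups, deviations from the group means had a Pearson r of 0.642 (permutation p = 0.0142 with shuffling within groups) and a Spearman rho of 0.532 (p = 0.0525). Without the 2 samples farthest from the median for COR15A, replicates 2 and 4 of cold CBF2DN, r was 0.630. The 2 values of a sample come from 1 RNA and 1 array, and lines differ within the groups.

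Genes whose pattern was most like that of the pair were sought among 7898 named genes by Pearson correlation of the log2 level over the 28 samples, which fall mainly into a low and a high cluster. For COR15A the closest was COR15B (0.990, Spearman 0.815), followed by AT1G16850 (0.965), LTI30 (0.962), AT2G23120 (0.948) and AT4G30650 (0.941). For COR15B they were COR15A (0.990), AT1G16850 (0.962), LTI30 (0.961), AT4G30650 (0.957) and COR47 (0.943). LTI30 and COR47 encode dehydrins, hydrophilic LEA proteins that accumulate in cold or dry plants. By Spearman correlation 1 of the 5 genes remained among the 5 closest for each member, and the pair were not each other's closest. COR15B then had rank 29 for COR15A, with AT2G16990 first (0.937). COR15A had rank 8 for COR15B, with AT2G23120 first (0.859). By Pearson correlation over the 20 warm samples alone 4 remained for COR15A and 3 for COR15B.

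These genes were picked for following the pair over the same samples, so their calls in the cold and in each overexpressor go with the choice and are given as a description. AT1G16850 rose by 8.28 in cold wild type and by 6.81, 7.41 and 7.50 in CBF1OX, CBF2OX and CBF3OX. In cold CBF2DN against cold wild type it stood at -2.05 and was not called. AT2G23120 rose by 2.44 in the cold and by 2.32, 2.71 and 2.90 in the overexpressors, and AT4G30650 by 2.97, 2.56, 2.90 and 2.96. When only the compared groups were fitted, the calls of AT2G23120, AT4G30650 and COR47 in CBF1OX ended.

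LTI30 and COR47 were also the members with a named probe set in a list of 9 other classical CBF targets, 2 of 9. The others had no probe set with a single gene name, and whether unnamed probe sets measure them was not examined. Both rose in the cold wild type (5.36 ± 0.40 and 2.64 ± 0.26) and in each overexpressor, with LTI30 at 4.21, 4.99 and 4.78 and COR47 at 1.90, 2.31 and 2.18 in the order CBF1OX, CBF2OX, CBF3OX. In warm CBF2DN LTI30 stood at -1.34 and COR47 at -0.54 relative to warm wild type, neither called. In cold CBF2DN relative to cold wild type they stood at -0.63 and -0.43, also not called. The median change of the 2 was 4.00 in cold wild type, against -0.04 over all features. In CBF1OX relative to cold wild type LTI30 stood at -1.15 ± 0.40 (limma adjusted p = 0.0205) and was called. That call ended without CBF1OX replicate 1 or 2, both of line G5, and with line G39 alone the value was -0.03.

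The lines of CBF1OX differed more in these genes than in the COR15 pair, although that contrast between genes was not tested. In G5 relative to G39 the 5 other genes named as most alike were all called lower, AT1G16850 at -3.62 ± 0.29, LTI30 at -2.24 ± 0.19, AT4G30650 at -1.79 ± 0.28, AT2G23120 at -1.47 ± 0.22 and COR47 at -1.37 ± 0.19 (limma adjusted p from 2.52e-08 to 0.000136, n = 2 a line). The COR15 pair, at -0.69 and -0.85, was not called there, where 5.89% of features were. The 5 genes were picked over samples that include both lines, and the pair was also lower in G5. Their shared direction therefore goes in part with that choice. Between the lines of CBF2DN in the cold AT1G16850 (2.34 ± 0.29) and LTI30 (1.07 ± 0.19) were called higher in DN89, and LTI30 was also called higher in DN89 when warm (1.09 ± 0.19). Between the lines of CBF2OX AT1G16850 (1.05 ± 0.29) was called higher in E2. Of all features 1.1% were called between the CBF2DN lines in the cold, 0.919% between them when warm and 2.3% between the CBF2OX lines. The 4 calls of AT1G16850 and LTI30 in these comparisons ended when only the compared samples were fitted. Those of LTI30 also ended without cold CBF2DN replicate 2 and without warm CBF2DN replicate 1 or 4, and that in CBF2OX without any 1 of its samples. The 5 calls between G5 and G39 were kept in all 6 alternatives, which were chosen after seeing the data.

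**Figure D4:**
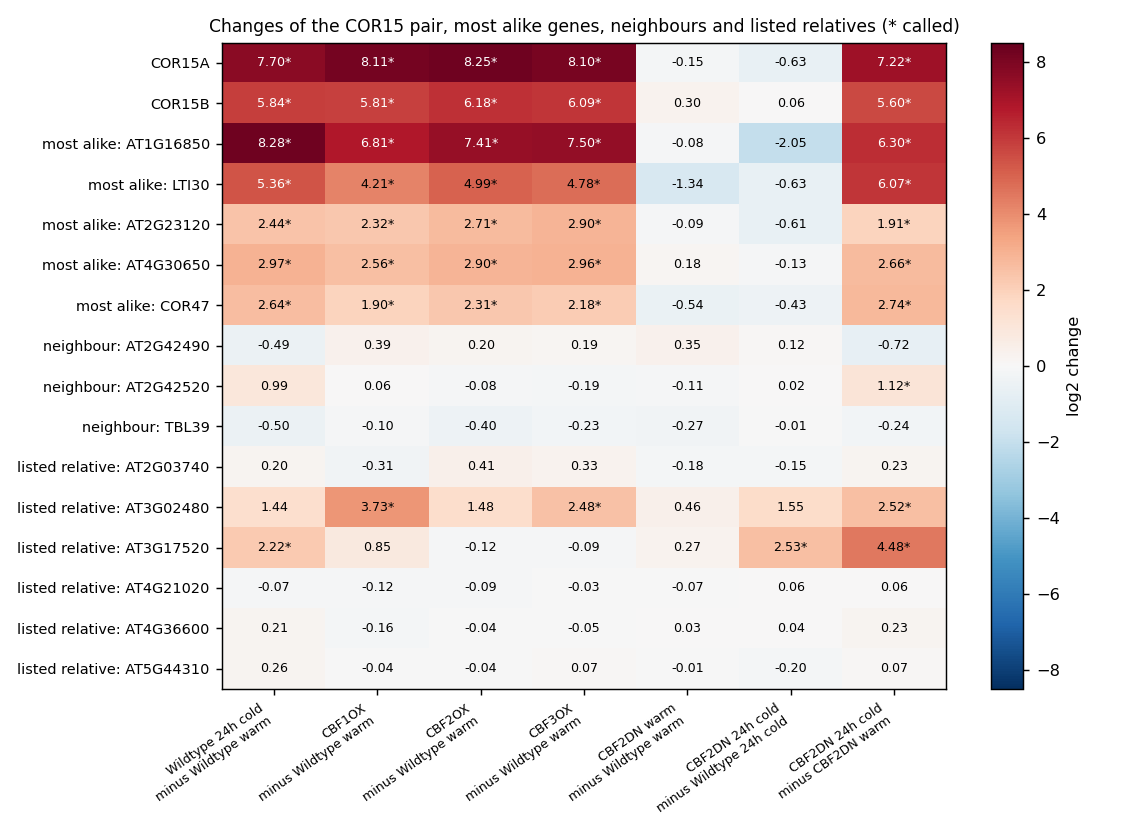
Log2 changes in 7 comparisons for the COR15 pair, the 5 other genes with the most alike pattern, 3 tested neighbours on the chromosome and 6 tested relatives, with an asterisk where a gene was called. The pair and the most alike genes, which were picked for following it over these samples, are called in the cold and in each overexpressor.

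Of the 5 annotated genes on either side of the COR15B-COR15A pair, 4 of 10 had a named probe set and 3 were tested. AT2G42520, directly next to COR15B, was 6.28 ± 0.23 in warm wild type and 7.28 ± 0.12 in cold wild type, a change of 0.99 ± 0.15 (limma adjusted p = 3.08e-06) that was just under 2-fold. In CBF2DN it rose in the cold by 1.12 ± 0.15 and was called. In the overexpressors it stood at 0.06, -0.08 and -0.19 and was not called. AT2G42490 (-0.49 in the cold wild type, and 0.39, 0.20 and 0.19 in the overexpressors) and TBL39 (-0.50, and -0.10, -0.40 and -0.23) were not called in these comparisons. AT2G42560, beyond COR15A, had group means of 2.19 to 2.65 and did not pass the filter on dim features.

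Listed relatives of COR15 in a family of LEA proteins were described in the same comparisons. Of 16 listed loci, whose roles the annotation used here does not give, 13 had a named probe set and 6 passed the filter. Of all 22589 features 14578 passed it. In the cold wild type 1 of the 6 rose, where 8.74% of all features did, and in CBF1OX, CBF2OX and CBF3OX 1, 0 and 1 rose, where 1.8%, 1.71% and 1.94% did. With 6 genes these counts do not set the list apart from all features. The median change of the 6 was 0.24 in the cold and -0.08, -0.04 and 0.02 in the overexpressors, against -0.04, 0.007, 0 and 0.001 over all features.

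AT3G02480 and AT3G17520 were the relatives that changed. AT3G02480 rose by 3.73 ± 0.76 in CBF1OX (limma adjusted p = 0.00413) and by 2.48 ± 0.76 in CBF3OX (adjusted p = 0.0396), and by 2.52 ± 0.76 in cold over warm CBF2DN (adjusted p = 0.00686). It stood at 1.48 in CBF2OX and 1.44 in cold wild type and was not called there. The CBF1OX call ended with the first lines alone and with only the compared groups fitted, and the CBF2DN call ended with either line alone. The CBF3OX call ended in 8 of 18 alternatives, including without CBF3OX replicate 2, 3 or 4 or warm wild-type replicate 1 or 2, and the change ranged from 1.65 to 3.31. AT3G17520 rose by 2.22 ± 0.75 in cold wild type (adjusted p = 0.0145), from 2.69 ± 0.10 to 4.92 ± 2.16, and by 4.48 ± 0.75 in cold CBF2DN against warm CBF2DN (adjusted p = 1.62e-05). Its cold wild-type samples ranged from 2.75 to 7.90, and without replicate 4 of them the change was 1.23 and the call ended. In the overexpressors it stood at 0.85, -0.12 and -0.09 and was not called, and its call in cold CBF2DN against cold wild type (2.53 ± 0.75, adjusted p = 0.0445) ended in 14 of 18 alternatives, without any 1 sample but cold wild-type replicate 4 among them.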

How the data were processed

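The submitters' processing notes name GCRMA and limma, without versions, and the deposited table holds 1 log2 value per probe set and array, from 2.16 to 14.53, a range from which the log base was read. The number of arrays, not depth, limits precision. Of 22810 probe sets, 13513 had 1 gene in the platform annotation, 503 several and 8730 none, and 64 controls were left out. Of 13356 gene identifiers 13286 matched the RefSeq table of TAIR10.1, used for symbols and for which genes are neighbours. A gene was represented by its probe set with the highest mean. Features above 4 in at least 4 arrays were tested, 7898 named genes and 6680 unnamed probe sets. limma 3.58.1 in R 4.3.3 fitted a mean per group to all 28 samples (lmFit, eBayes), or per line and temperature for lines, after tests on simulated data, with Benjamini-Hochberg adjustment over all features. Exact permutation tests used numpy 2.4.6 in Python 3.11.15. Alternatives changed the normalization, filter, variance model, samples fitted and blocks.

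The members and lists were chosen with earlier results of these data known. The genes named were the pair, list members with a named probe set, 5 annotated genes on either side and the 5 most correlated named genes of each member. Of 12 listed chloroplast stress proteins 0 had a named probe set. Replicate numbers paired the warm and cold CBF2DN samples through shared lines (correlations of deviations 0.152 to 0.283), and the replicate block changed no call of the pair.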

Additional observations from a re-analysis of the deposited data

Results flagged for a closer look

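Of 14 sets of 4 samples, the 7 groups for each gene, 2 held a sample far from the other 3, by Dixon's ratio of the gap to the range, where chance flags about 1 set in 20. COR15A in warm wild type stood at 5.01 in replicate 1, against 4.27 to 4.29 in the others (ratio 0.973). Without that sample the cold rise of COR15A was 7.88 in place of 7.70, and the value of warm CBF2DN against warm wild type was 0.029 in place of -0.15. COR15A in warm CBF2DN stood at 4.40 in replicate 3, against 4.27 to 4.29 (ratio 0.846). In both sets the other 3 samples lay at the repeated low value of COR15A, so even a small gap gave a large ratio. The rate of 1 in 20 does not hold for such nearly tied values.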

How the results depend on the processing

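The calls of COR15A and COR15B in the cold, in the 3 overexpressors and in CBF2OX against warm CBF2DN were kept in all alternatives run, with changes from 6.88 to 8.54 for COR15A and from 5.38 to 6.33 for COR15B. Sign changes occurred only in comparisons that were not called. With the second line of every construct alone CBF1OX minus CBF2OX was 0.33 for COR15A and 0.05 for COR15B, and for COR15B CBF1OX minus CBF3OX was 0.15, CBF1OX minus cold wild type 0.39 and cold CBF2DN minus cold wild type -0.048. COR15A in CBF1OX minus CBF3OX was -0.53 with the first lines alone and -0.054 after quantile normalization, and COR15B in E2 minus E24 was -0.005 after centring arrays on their medians. Leaving out single samples gave ranges for COR15A of -0.266 to 0.058 (CBF1OX minus CBF2OX), -0.12 to 0.20 (CBF1OX minus CBF3OX), -0.035 to 0.268 (CBF2OX minus CBF3OX), -0.218 to 0.029 (CBF2DN minus wild type, warm), -0.11 to 0.02 (DN89 minus DN96, warm) and -0.18 to 0.67 (E2 minus E24). For COR15B they were -0.18 to 0.19 (CBF1OX minus cold wild type), -0.059 to 0.206 (cold CBF2DN minus cold wild type), -0.16 to 0.17 (E2 minus E24), -0.07 to 0.13 (A28 minus A30), -0.17 to 0.23 (DN89 minus DN96, warm), -0.12 to 0.55 (the same, cold) and -1.09 to -0.61 (G5 minus G39, called without CBF1OX replicate 1). The unequal change ranged from 0.34 to 0.65 in CBF1OX against cold wild type and from -0.89 to -0.48 in cold CBF2DN against cold wild type. Without cold wild-type replicate 4 the former, and without CBF2DN replicate 2 the latter, had no overlap and the smallest possible exact permutation p. Each then passed only because it tied in the adjustment with the 5 comparisons already at that p. Passing there does not set it above those, which did not pass. The cause of these moves in value was not tested. With the replicate block COR15A changed by 7.70 and COR15B by 5.84 in cold wild type with a standard error of 0.25 and 0.21, and no call of the pair changed. Line as a random block (consensus correlation 0.195) also changed no call of the pair between groups. For comparisons between lines no replicate block could be made, because lines of a construct share no replicate number. No other probe set of the pair was at hand. Over all features the count called ranged from 35 to 1169 in CBF1OX (369 as reported), 255 to 752 in CBF2OX (364), 26 to 376 in cold CBF2DN against cold wild type (122), 247 to 811 in CBF2OX against warm CBF2DN (363), 1 to 139 in warm CBF2DN (3), 2 to 65 in the interaction (4), and 1 to 451, 1 to 341 and 2 to 135 between overexpressors (5, 3 and 3). Between lines it fell to 0 with only the compared samples fitted in limma for CBF2OX (335), CBF3OX (1), and CBF2DN warm (134) and cold (160), where 2430, 805, 1627 and 1295 features had an unadjusted p below 0.05. For other genes named here and called between groups the call was kept 727 times and ended 47 times, with 0 turned directions. For the genes most like the pair that were called between lines it was kept 43 times and ended 11 times, under alternatives chosen after seeing the data.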
